A study of Mus musculus with 19 samples.

Results

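Microglia, the resident macrophages of the brain and spinal cord, were compared between mice whose astrocytes carried a hairpin against Xbp1 (shXbp1) and mice whose astrocytes carried a scrambled hairpin (shScrmbl). The comparison took the 7 microglia libraries of the 19 in the series, 3 of shXbp1 mice and 4 of shScrmbl mice, and all 3067 genes of the microglia table. All mice were wild-type C57Bl/6 females at postnatal day 85, and each had received by intracranial injection a lentivirus with GFP and a hairpin behind the Gfap promoter. That promoter is active in astrocytes, so the microglia themselves were not the intended target. Experimental autoimmune encephalomyelitis (EAE), a model of multiple sclerosis, was then induced in every mouse by immunization against myelin (25 µg of MOG35-55, emulsified with complete Freund's adjuvant), and there was no unimmunized or untransduced group. Microglia were sorted by flow cytometry, with the antibodies not given in the sources used here, and their transcripts were counted at the 3′ end. Whether libraries came from separate sorting days is not stated either. The labels describe 1 nervous system per mouse, so each library was taken as 1 mouse.

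XBP1 is made when the ER stress sensor IRE1 splices its mRNA, and as a transcription factor it then raises the folding and degradation capacity of the endoplasmic reticulum (ER), 1 arm of the unfolded protein response. Microglia survey healthy tissue with a characteristic set of receptors, among them P2RY12 and CX3CR1. During EAE they take up myelin debris, raise lysosomal and antigen-presentation genes, and share the tissue with monocytes that enter from the blood and express many of the same genes.

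The deposited unit was a normalized signal, and dividing each library's values by its smallest value above 0 gave back whole counts. The libraries were shallow and unequal, as the plot of depth shows. The shXbp1 libraries 1 to 3 held 10039, 13321 and 46586 counts, and the shScrmbl libraries 1 to 4 held 17892, 92765, 122002 and 25821, so 78.7% of all counts came from shScrmbl mice. A single count was worth a signal of 76.0, 69.0 and 23.9 in the shXbp1 libraries and 51.9, 12.6, 9.33 and 40.0 in the shScrmbl libraries. The median gene had 7 counts summed over the shXbp1 libraries and 24 over the shScrmbl libraries, and 1292 genes were above 0 in all 7. A value of 0 in a shallow library does not show absence.

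**Figure D1:**
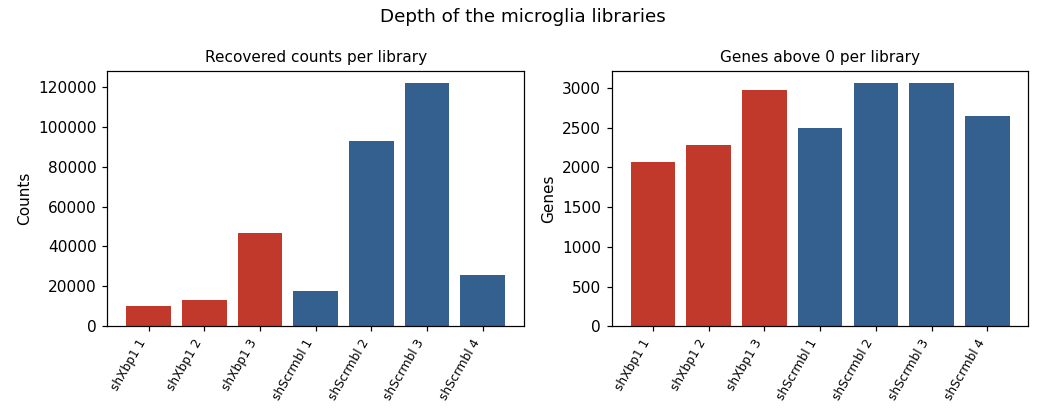
Recovered counts (left) and genes above 0 (right) in each microglia library, 3 shXbp1 libraries in red and 4 shScrmbl libraries in blue, 1 bar per library. shScrmbl 2 and 3 held 92765 and 122002 counts, and every other library held 46586 or fewer.

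The microglia label was checked against 7 defining genes, all of which were measured in both groups. Cx3cr1, the fractalkine receptor, had a signal of 2052, 1518 and 2227 in shXbp1 microglia, against 1661, 1287, 1298 and 1200.0 in shScrmbl microglia. Csf1r, the receptor on which microglia depend for survival, had 2204, 1104 and 1365 in shXbp1 microglia, against 1401, 1249, 1176 and 1760.0 in shScrmbl microglia. P2ry12, Siglech, Tmem119, Fcrls and Gpr34 were above 0 in every library. The table holds no Gfap, Aqp4 or Slc1a2, which define astrocytes, no Cd79a of B cells and no Cldn5 or Pecam1 of endothelium, but it holds other markers of these cells, 6 of 18 listed for astrocytes, 2 of 11 for B and plasma cells and 4 of 19 for endothelial and mural cells. The monocyte genes Ly6c2 and Ccr2 were low. Ly6c2 had 0, 69.0 and 0 in shXbp1 microglia and 51.9, 88.3, 74.7 and 0 in shScrmbl microglia. Ccr2 had 0, 0 and 95.8 in shXbp1 microglia and 51.9, 177, 28.0 and 80.0 in shScrmbl microglia. A wider monocyte and macrophage list, with Lyz2, took 0.388%, 1.15% and 0.479% of counts in shXbp1 microglia, against 0.671%, 2.46%, 1.79% and 0.906% in shScrmbl microglia. The homeostatic microglia list described below took 2.47%, 1.31% and 1.90% in shXbp1 microglia, against 1.74%, 1.03%, 1.01% and 1.57% in shScrmbl microglia. Ttr, which choroid plexus makes in very large amounts, had 39062, 30495 and 40030 in shXbp1 microglia, against 58082, 21717, 23552 and 17440.0 in shScrmbl microglia.

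Between shXbp1 and shScrmbl microglia few genes passed edgeR's test, and none passed limma's, which had been planned as the main test. Most of the lower genes that edgeR called belong to a list of secreted defence proteins drawn up with earlier results known. Of 3066 genes tested, edgeR's quasi-likelihood test with Benjamini-Hochberg adjustment called 12 (0.391%), 8 lower (0.261%) and 4 higher (0.13%). The 8 lower genes were Pla2g7, Hp, Cfb, Cybb, Saa3, Anxa5, Lyz1 and Lyz2, and 3 of the 4 higher ones were Prss34, Hbb-bt and Rps24. limma on log2(signal + 1) called 0 genes, with a smallest adjusted p of 0.653 and 166 genes (5.41%) with an unadjusted p under 0.05, of which 146 were lower (4.76%) and 20 higher (0.652%). DESeq2 called 0 as well, and its unadjusted p was under 0.05 for 62 genes (2.02%), 44 lower (1.44%) and 18 higher (0.587%). For edgeR that number was 168 (5.48%), 124 lower (4.04%) and 44 higher (1.44%). The directions below are those of edgeR, and none of the genes named passed limma. Across all genes 55.4% were lower and 44.6% higher by edgeR, 65.5% were lower and 34.5% higher by limma, and the median log2 difference, shXbp1 minus shScrmbl, was -0.09 by edgeR and -0.39 by limma.

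**Figure D2:**
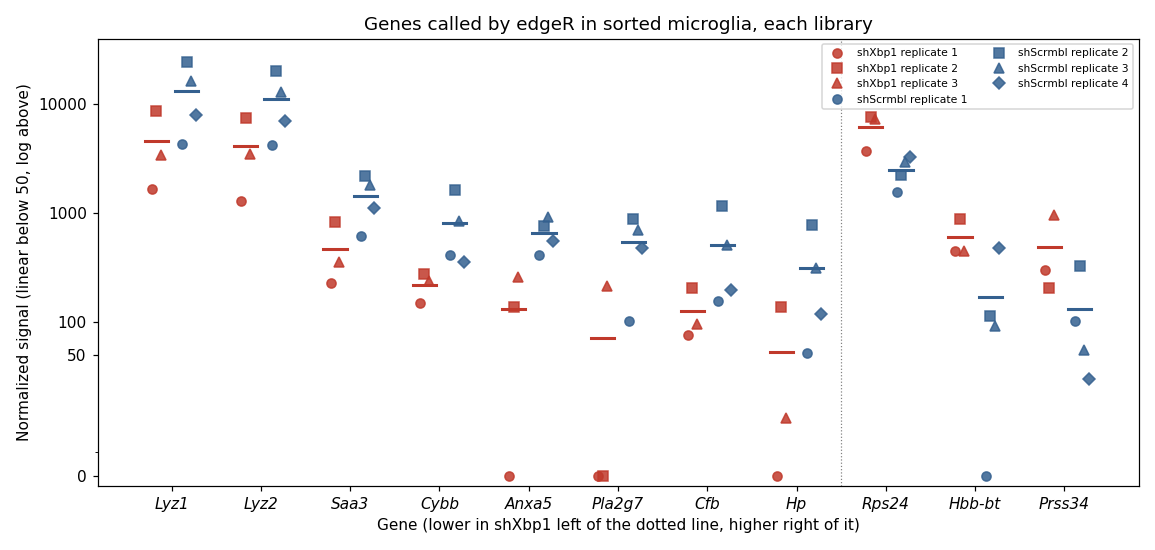
Normalized signal (linear below 50, logarithmic above) of 11 genes called by edgeR in each microglia library, 3 shXbp1 libraries in red left of 4 shScrmbl libraries in blue, with a line at each group's mean. Cybb, Anxa5 and Rps24 are the genes here whose groups do not overlap, and shXbp1 replicate 1 is the lowest point, or tied for it, of each of the 8 genes left of the dotted line.

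Xbp1 itself was close to the detection limit in microglia. It had 76.0, 69.0 and 0 in shXbp1 microglia, against 51.9, 50.5, 103 and 0 in shScrmbl microglia, from 2 and 16 counts. The means were 48.3 ± 42.0 in shXbp1 and 51.3 ± 41.9 in shScrmbl microglia (SD, n = 3 and 4, exact two-sided permutation test p = 0.886, where the smallest p the design allows is 0.0286). Since the hairpin was driven in astrocytes, this level does not check the knockdown. In the astrocyte libraries of the same study Xbp1 had 34.1, 52.9, 31.2 and 79.7 in shXbp1 mice, against 20.1, 71.7, 79.9 and 27.6 in shScrmbl mice, from 28 and 22 counts. The means were 49.5 ± 22.3 in shXbp1 and 49.8 ± 30.3 in shScrmbl astrocytes (SD, n = 4 each, exact two-sided permutation test p = 0.971, edgeR log2 difference -0.08). A reduction of Xbp1 was thus not detectable at this depth in the cells the hairpin was aimed at, and the groups rest on the labels.

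The lysozymes were the most abundant genes called. Lyz1 and Lyz2 are neighbouring genes on chromosome 10 whose enzymes cleave bacterial cell walls, and Lyz2 is a general marker of myeloid cells. Lyz1 had a signal of 1672, 8693 and 3471 in shXbp1 microglia, against 4308, 24771, 16401 and 8040.0 in shScrmbl microglia. Lyz2 had 1292, 7589 and 3519 in shXbp1 microglia, against 4204, 20367, 12929 and 7120.0 in shScrmbl microglia. For both genes shXbp1 replicate 2 lay above shScrmbl replicates 1 and 4, so the groups overlapped. The edgeR log2 difference was -1.55 for Lyz1 (adjusted p = 0.0237) and -1.44 for Lyz2 (edgeR adjusted p = 0.0383). The limma differences were -1.56 ± 0.83 (SE) and -1.53 ± 0.80. Near copies limit the distinction: 17.7% of the 50-base words in the last 500 bases of Lyz1 transcripts also occur in Lyz2, so reads of one can be given to the other.

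Saa3, an acute-phase protein that macrophages make during inflammation, was lower with overlapping groups. Its signal was 228, 828 and 359 in shXbp1 microglia, against 623, 2221, 1830 and 1120.0 in shScrmbl microglia. Means were 472 ± 315 in shXbp1 and 1448 ± 714 in shScrmbl microglia (SD, n = 3 and 4; edgeR log2 difference -1.73, adjusted p = 0.0164). Hp encodes haptoglobin, which binds free haemoglobin, and had 0, 138 and 23.9 in shXbp1 microglia, against 51.9, 782, 317 and 120.0 in shScrmbl microglia. This rested on 3 counts in shXbp1 libraries and 100 in shScrmbl libraries, a ratio of 0.0997 with a 95% counting interval of 0.0202 to 0.30 after scaling for depth (edgeR log2 difference -3.06, adjusted p = 0.0136). That interval pools the counts of each group and leaves out the spread between mice. The shScrmbl libraries 1 to 4 held 1, 62, 34 and 3 Hp counts. Pla2g7, the enzyme that inactivates platelet-activating factor, had 0, 0 and 215 in shXbp1 microglia, against 104, 896, 709 and 480.0 in shScrmbl microglia (edgeR log2 difference -2.33, adjusted p = 0.0136). Both shXbp1 libraries without a Pla2g7 count are the shallowest of the 7.

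Cfb, factor B of the alternative complement pathway, had 76.0, 207 and 95.8 in shXbp1 microglia, against 156, 1174, 513 and 200.0 in shScrmbl microglia. Its edgeR log2 difference was -2.29 (adjusted p = 0.0164), and shXbp1 replicate 2 lay above shScrmbl replicates 1 and 4. The last 500 bases of Cfb share 64.2% of their 50-base words with the overlapping annotation Gm20547, so the counts may not belong to Cfb alone. The secreted defence list was drawn up with earlier results of these data known, so its direction and its calls are a description and not a test. All 11 measured members of the 15 on this list were lower by edgeR, 6 of them called, with a median log2 difference of -2.14 beside -0.09 over all genes. Among the other 5, Chi3l3, a chitinase-like protein of alternatively activated macrophages, had 76.0, 207 and 23.9 in shXbp1 microglia, against 104, 909, 3426 and 160.0 in shScrmbl microglia (edgeR adjusted p = 0.93). Wfdc17, a small whey acidic protein of activated macrophages, had 228, 207 and 168 in shXbp1 microglia, against 208, 833, 457 and 200.0 in shScrmbl microglia (edgeR adjusted p = 0.44).

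The promoters of 4 of the 8 lower genes are shown. Each window runs from 250 bases before to 50 after the gene's start, from RefSeq on GRCm38.p6 and on the gene's own strand (minus for all 4). Capitals mark letters searched on both strands as C/EBP-like (TTNNGCAA or TTGCNNAA) in Saa3 and Lyz1, and as ISRE-like, the interferon-response element (GAAANNGAAA or TTTCNNTTTC), in Saa3 and Cybb. No 2 matches overlapped.
Saa3, chr7:46715627-46715926: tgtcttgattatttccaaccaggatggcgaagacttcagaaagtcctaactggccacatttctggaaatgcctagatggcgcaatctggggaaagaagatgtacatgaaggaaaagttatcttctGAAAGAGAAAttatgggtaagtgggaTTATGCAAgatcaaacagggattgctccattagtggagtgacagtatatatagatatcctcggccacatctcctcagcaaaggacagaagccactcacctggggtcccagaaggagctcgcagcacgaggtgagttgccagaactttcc
Cybb, chrX:9469275-9469574: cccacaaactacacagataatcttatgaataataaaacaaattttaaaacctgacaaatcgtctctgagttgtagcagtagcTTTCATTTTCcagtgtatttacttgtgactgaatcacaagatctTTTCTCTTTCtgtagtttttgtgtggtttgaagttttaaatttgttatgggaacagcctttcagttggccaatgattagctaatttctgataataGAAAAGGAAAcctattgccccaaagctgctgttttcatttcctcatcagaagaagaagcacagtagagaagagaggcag
Lyz1, chr10:117292819-117293118: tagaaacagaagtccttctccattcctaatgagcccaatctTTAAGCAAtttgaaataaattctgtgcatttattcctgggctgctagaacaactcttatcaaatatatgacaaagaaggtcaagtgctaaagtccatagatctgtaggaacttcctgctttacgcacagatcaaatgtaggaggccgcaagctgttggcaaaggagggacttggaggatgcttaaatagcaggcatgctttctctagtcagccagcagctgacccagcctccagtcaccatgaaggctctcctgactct
Lyz2, chr10:117282223-117282522: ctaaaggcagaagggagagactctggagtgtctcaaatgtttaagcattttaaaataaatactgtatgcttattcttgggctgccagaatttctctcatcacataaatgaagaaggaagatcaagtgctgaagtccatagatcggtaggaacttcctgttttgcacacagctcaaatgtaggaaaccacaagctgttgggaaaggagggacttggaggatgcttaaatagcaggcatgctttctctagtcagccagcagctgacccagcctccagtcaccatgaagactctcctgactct
The ISRE-like letters occur in 3.44% and the C/EBP-like letters in 10.8% of 32851 RefSeq promoter windows of this length. Of the 8 lower genes 6 had a window, and ISRE-like letters were found in 2 of them, C/EBP-like letters in 2, and a STAT-like TTCNNNGAA in 1, Pla2g7, against 8.30% of all windows. PU.1-like letters (GAGGAAGT or ACTTCCTC) and NF-kB-like letters (GGGANNNTCC or GGANNNTCCC) were found in 0 of the 6, beside 3.20% and 4.59% of all windows. The last 100 bases of the Lyz1 and Lyz2 windows are identical at 99 positions, and their longest common run is 86 bases. The 4 windows shown hold every ISRE-like and C/EBP-like match among the 6, and the windows of Pla2g7 and Anxa5 are not shown. Matches of this kind describe the letters and say nothing about binding in these cells.

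Cybb was lower in every shXbp1 library than in any shScrmbl library. The gene encodes the membrane subunit of the phagocyte NADPH oxidase, which makes superoxide, and had 152, 276 and 239 in shXbp1 microglia, against 415, 1653, 849 and 360.0 in shScrmbl microglia. Means were 222 ± 63.7 in shXbp1 and 819 ± 597 in shScrmbl microglia (SD, n = 3 and 4; edgeR log2 difference -1.95, adjusted p = 0.0164). Without overlap between groups there were 222 of the 3066 genes (7.24%), 151 lower (4.92%) and 71 higher (2.32%). The other oxidase subunits were lower too, but only Cybb was called among the 6 measured (median edgeR log2 difference -0.72, 0 higher and 6 lower). Cyba, the partner of Cybb in the membrane, had 152, 552 and 359 in shXbp1 microglia, against 311, 871, 485 and 520.0 in shScrmbl microglia. Rac2, the small GTPase of the complex, had 228, 207 and 359 in shXbp1 microglia, against 571, 391, 513 and 360.0 in shScrmbl microglia. Its groups did not overlap, but 359 and 360.0 differ by less than 1 count, worth 23.9 and 40.0 in those libraries. With thinned counts, in which each library was reduced to the depth of the shallowest, the same 6 split into 3 higher and 3 lower.

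Anxa5, an annexin that binds phosphatidylserine on dying cells, was the other lower gene without overlap. It had 0, 138 and 263 in shXbp1 microglia, against 415, 770, 924 and 560.0 in shScrmbl microglia (edgeR log2 difference -2.01, adjusted p = 0.0164). Of 14 annexins and S100 calcium-binding proteins measured, 13 were lower and 1 higher by edgeR (median -1.23). Lower without overlap were 4 of them, beside 4.92% of all genes. S100a6 had 0, 69.0 and 95.8 in shXbp1 microglia, against 156, 442, 177 and 120.0 in shScrmbl microglia (edgeR adjusted p = 0.38). Anxa2, a membrane and cytoskeleton linker, had 76.0, 138 and 95.8 in shXbp1 microglia, against 104, 480, 280.0 and 200.0 in shScrmbl microglia (edgeR adjusted p = 0.44).

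Markers of monocytes and macrophages, a list that includes some of the called genes, were mostly lower by edgeR. Of 23 listed 20 were measured, 19 lower and 1 higher by edgeR, with a median log2 difference of -1.23, and 3 of them, Lyz2, Cybb and Hp, were among the 8 lower genes called. Their summed share of each library was 0.388%, 1.15% and 0.479% in shXbp1 microglia, against 0.671%, 2.46%, 1.79% and 0.906% in shScrmbl microglia. Without the 3 called genes the share was 0.199%, 0.278% and 0.14% in shXbp1 microglia, against 0.168%, 0.516%, 0.548% and 0.17% in shScrmbl microglia. The 2 deepest shScrmbl libraries, replicates 2 and 3, thus held the highest share in either form. In these sorted bulk libraries, fewer cells of a type and less RNA per cell cannot be told apart, and the part of monocyte-derived cells in the lower lysozyme, Cybb and Hp values was not tested. Examples outside the called genes are Fn1, fibronectin, with 76.0, 69.0 and 144 in shXbp1 microglia and 51.9, 606, 159 and 160.0 in shScrmbl microglia. F13a1, a coagulation factor subunit of monocytes, had 76.0, 0 and 0 in shXbp1 microglia and 51.9, 227, 168 and 40.0 in shScrmbl microglia (edgeR adjusted p = 0.27). Lgals3, a galectin of activated macrophages, had 380.0, 552 and 287 in shXbp1 microglia and 156, 1325, 784 and 400.0 in shScrmbl microglia.

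**Figure D3:**
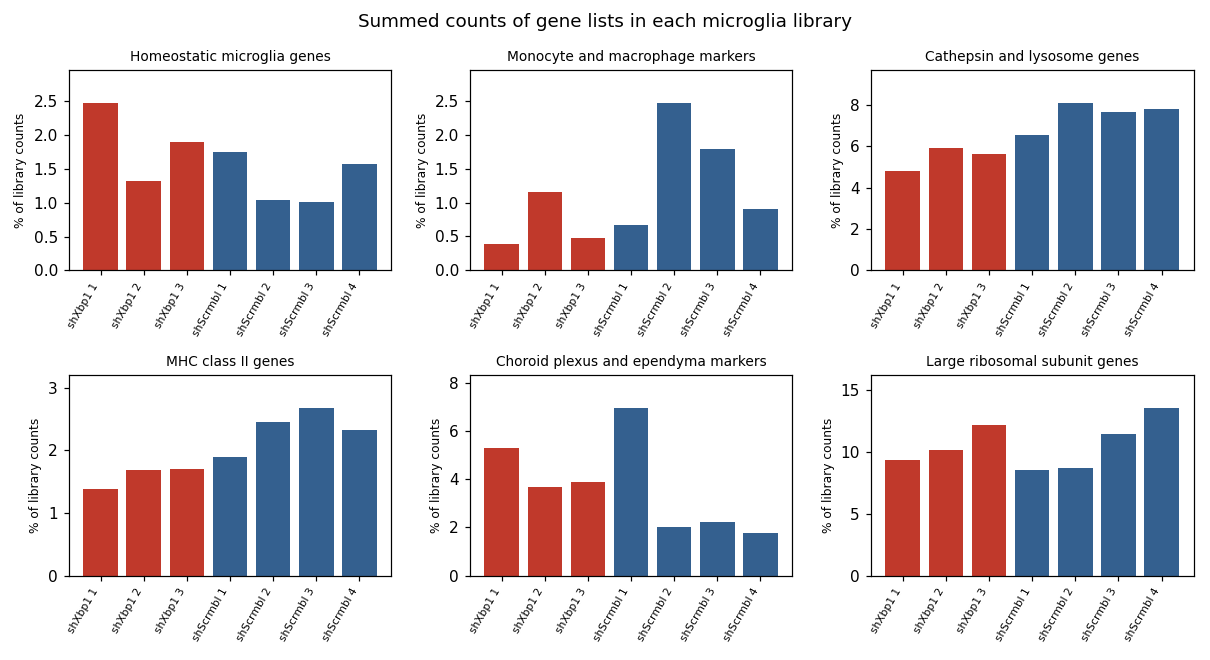
Summed counts of 6 gene lists as a percentage of each library's counts, 1 bar per library, 3 shXbp1 libraries in red left of 4 shScrmbl libraries in blue. Cathepsin and lysosome genes and MHC class II genes are lower in each red bar than in any blue bar, whereas homeostatic genes and monocyte markers overlap between groups. In summed normalized signal the cathepsin and lysosome list and the MHC class II list overlap between groups as well.

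Rps24 was higher in every shXbp1 library than in any shScrmbl library. This protein of the small ribosomal subunit had 3724, 7658 and 7350.0 in shXbp1 microglia, against 1557, 2246, 2978 and 3280.0 in shScrmbl microglia. Means were 6244 ± 2188 in shXbp1 and 2515 ± 772 in shScrmbl microglia (SD, n = 3 and 4; edgeR log2 difference 1.31, adjusted p = 0.0478). It was 1 of 31 small-subunit genes measured, of which 13 were higher and 18 lower by edgeR (median -0.09), and no other was called. Rps14, the most abundant, had 6080, 7313 and 10654 in shXbp1 microglia, against 5969, 8026, 9428 and 11440.0 in shScrmbl microglia. Copies of Rps24 elsewhere in the genome share 27.6% of its 50-base words, 19.7% with Rps24-ps3, and how reads were divided among them is not given in the sources used here, so its value is uncertain.

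Prss34, a serine protease of basophils and mucosal mast cells, was higher with overlapping groups. It had 304, 207 and 958 in shXbp1 microglia, against 104, 328, 56.0 and 40.0 in shScrmbl microglia (edgeR log2 difference 1.94, adjusted p = 0.0136). Without shXbp1 replicate 3 the difference was 0.73 and edgeR's adjusted p was 0.939. The only other mast cell or basophil marker of 10 listed that the table holds, Mcpt8, had 228, 138 and 120.0 in shXbp1 microglia, against 208, 12.6, 0 and 40.0 in shScrmbl microglia (edgeR adjusted p = 0.38). Hbb-bt, an adult beta-globin chain of red cells, had 456, 897 and 455 in shXbp1 microglia, against 0, 114, 93.3 and 480.0 in shScrmbl microglia (edgeR log2 difference 1.95, adjusted p = 0.0164). Its near copy Hbb-bs shares 64.5% of its 50-base words and had 760.0, 897 and 359 in shXbp1 microglia, against 260.0, 227, 187 and 1320.0 in shScrmbl microglia (edgeR adjusted p = 0.996). The 4 erythroid genes measured were all higher by edgeR (median 1.23), and their share was 0.199%, 0.255% and 0.0859% in shXbp1 microglia, against 0.0391%, 0.041%, 0.0287% and 0.232% in shScrmbl microglia. The part of red cell RNA in the Hbb-bt value was not tested.

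Genes ranked by limma alone added 6 names whose groups did not overlap and whose adjusted p by limma lay between 0.65 and 0.80. Ctsb, cathepsin B, had 2508, 4484 and 6799 in shXbp1 microglia, against 7111, 13603, 12546 and 9680.0 in shScrmbl microglia (limma log2 difference -1.29 ± 0.33 SE). Arpc1b, a subunit of the actin-nucleating Arp2/3 complex, had 228, 138 and 383 in shXbp1 microglia, against 675, 732, 616 and 840.0 in shScrmbl microglia. Atp5e, the epsilon subunit of ATP synthase, had 76.0, 207 and 407 in shXbp1 microglia, against 415, 669, 607 and 840.0 in shScrmbl microglia. Here 407 and 415 differ by less than 1 count, worth 23.9 and 51.9 in those libraries. On the higher side, Ptgds, prostaglandin D2 synthase of glia and meninges, had 988, 552 and 718 in shXbp1 microglia, against 363, 151, 476 and 120.0 in shScrmbl microglia. Ssh2, a phosphatase that activates cofilin, had 304, 414 and 311 in shXbp1 microglia, against 156, 164, 121 and 40.0 in shScrmbl microglia. Itga6, an integrin chain for laminin, had 380.0, 414 and 215 in shXbp1 microglia, against 104, 151, 112 and 160.0 in shScrmbl microglia.

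Antigen-presentation genes lay below the median of all genes by edgeR and limma, lysosomal genes by edgeR, and 0 of the cathepsin, lysosome and MHC genes listed passed either test. Of 29 cathepsin and lysosome genes measured, 26 were lower and 3 higher by edgeR (median -0.40). Lower without overlap were 5 of them, beside 4.92% of all genes. By limma their median was -0.43, where that of all genes was -0.39, and it exceeded that of all genes by 0.011 once shScrmbl replicate 1 was dropped, by 0.023 for shScrmbl replicate 4 and by 0.34 for shXbp1 replicate 3. Ctsd, cathepsin D, had 10183, 14212 and 18124 in shXbp1 microglia, against 19828, 25237, 21069 and 24720.0 in shScrmbl microglia (edgeR adjusted p = 0.90). Psap, the precursor of the saposins that help degrade sphingolipids, had 3724, 7727 and 6823 in shXbp1 microglia, against 6073, 15243, 12285 and 8680.0 in shScrmbl microglia. The share of this list was 4.81%, 5.92% and 5.65% in shXbp1 microglia, against 6.52%, 8.08%, 7.64% and 7.80% in shScrmbl microglia, so the groups did not overlap in share of counts. In summed normalized signal they did overlap, with 62966 in shXbp1 replicate 3 and 60574 in shScrmbl replicate 1.

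The 9 measured MHC class II genes were all lower by edgeR, as were the 12 of class I and peptide loading. The class II median was -0.74. Its alpha chain gene H2-Aa had 1064, 2829 and 3376 in shXbp1 microglia, against 3581, 5641, 6105 and 3800.0 in shScrmbl microglia (edgeR log2 difference -0.96, adjusted p = 0.44). Cd74, the invariant chain that guides class II molecules, had 152, 276 and 359 in shXbp1 microglia, against 571, 429, 532 and 480.0 in shScrmbl microglia, and its groups did not overlap. Ctss, the protease that cleaves the invariant chain, had 7752, 9107 and 11995 in shXbp1 microglia, against 11263.5, 16745, 18660.5 and 15520.0 in shScrmbl microglia. The class I median was -0.56, and 5 of the 12 were lower without overlap, beside 4.92% of all genes. B2m, the light chain of class I molecules, had 4788, 4622 and 7877 in shXbp1 microglia, against 9343, 10802, 11221 and 10560.0 in shScrmbl microglia (edgeR log2 difference -0.85, adjusted p = 0.63). Tapbp, which holds class I molecules for peptide loading, had 152, 207 and 407 in shXbp1 microglia, against 519, 593, 560.0 and 480.0 in shScrmbl microglia.

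**Figure D4:**
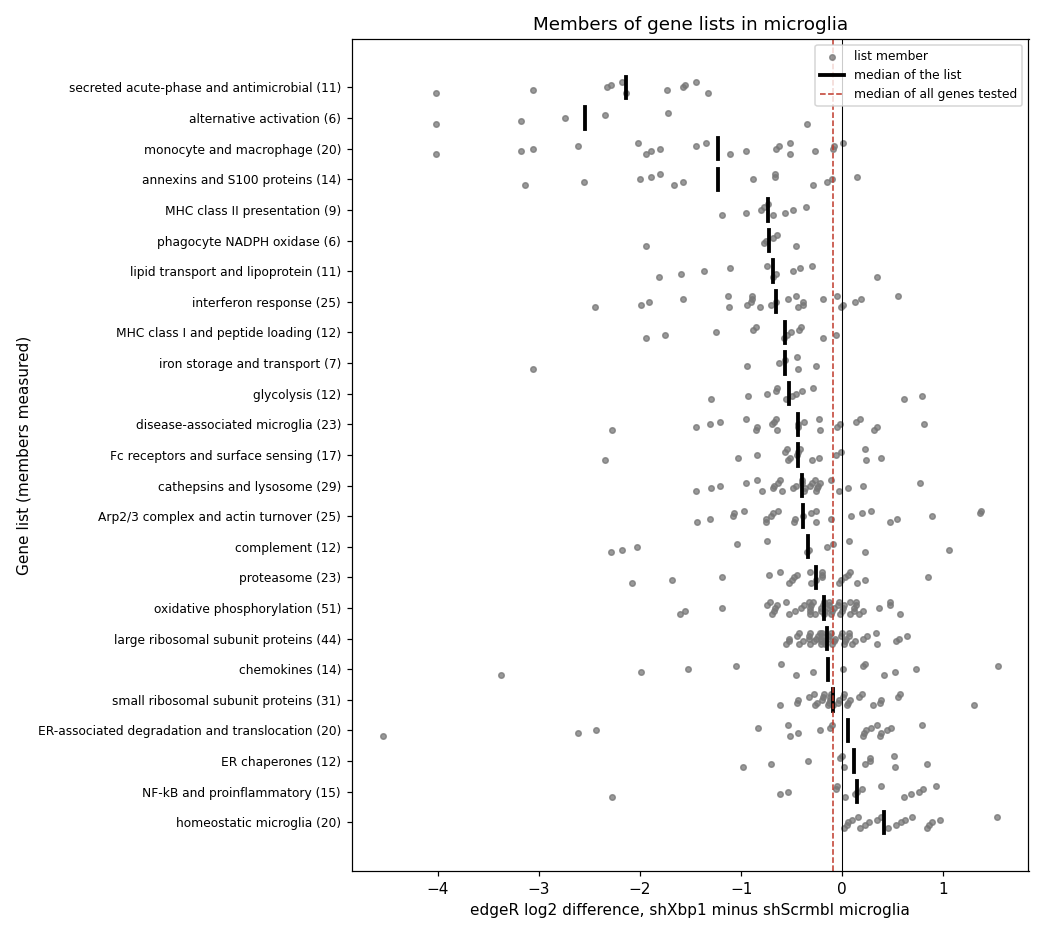
edgeR log2 differences (shXbp1 minus shScrmbl microglia) of the measured members of 25 gene lists, 1 point per gene, with a bar at each list's median and a dashed line at the median of all genes (-0.09). The secreted defence list sits at -2.14 and the monocyte and macrophage list at -1.23, and the 20 homeostatic genes all lie right of 0.

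Homeostatic microglia genes, which resident microglia express at rest, had edgeR differences above 0 in every member. All 20 listed were measured, 20 higher and 0 lower by edgeR (median 0.42) and 14 higher and 6 lower by limma (median 0.21), and 0 were called. With each library left out in turn between 15 and 20 of the 20 stayed above 0, and 13 did without shScrmbl replicates 2 and 3 together. P2ry12, the ADP receptor of microglial processes, had 608, 552 and 1029 in shXbp1 microglia, against 986, 328, 205 and 440.0 in shScrmbl microglia (edgeR adjusted p = 0.75). Tmem119 had 836, 483 and 551 in shXbp1 microglia, against 156, 366, 495 and 360.0 in shScrmbl microglia. Fcrls, an Fc receptor-like gene of mouse microglia, had 1216, 69.0 and 670.4 in shXbp1 microglia, against 311, 177, 93.3 and 520.0 in shScrmbl microglia (edgeR log2 difference 1.54, adjusted p = 0.111). Cst3, the secreted protease inhibitor cystatin C, had 4408, 2829 and 5602 in shXbp1 microglia, against 4412, 2410.2, 2492 and 4520.0 in shScrmbl microglia. The groups overlapped for each of the 20.

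Disease-associated microglia genes, which microglia raise around damage, were 18 lower and 5 higher by edgeR among 23 measured (median -0.44), with Lyz2 called. By limma their median was -0.42, where that of all genes was -0.39. It exceeded that of all genes by 0.058 once shScrmbl replicate 4 was dropped and by 0.34 for shXbp1 replicate 3. Apoe, the lipid carrier that heads this programme, had 5396, 23802 and 18291 in shXbp1 microglia, against 18634, 18335, 33718 and 28960.0 in shScrmbl microglia (edgeR adjusted p = 0.93). Spp1, osteopontin, had 1444, 1863 and 1699.8 in shXbp1 microglia, against 1972, 4164, 1307 and 2960.0 in shScrmbl microglia. Tyrobp, the signalling adaptor of TREM2, had 1899.9, 1725 and 3950.3 in shXbp1 microglia, against 2388, 3760.4, 3099 and 4800.0 in shScrmbl microglia. In lipid transport, 10 of 11 genes were lower (median -0.69). Apoc2, the activator of lipoprotein lipase, came nearest to the threshold with 152, 621 and 95.8 in shXbp1 microglia, against 208, 1792, 784 and 320.0 in shScrmbl microglia (edgeR log2 difference -1.82, adjusted p = 0.0693). Fabp5, a fatty acid binding protein, had 304, 345 and 431 in shXbp1 microglia, against 260.0, 1767, 887 and 720.0 in shScrmbl microglia.

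Interferon-response genes were 21 lower and 4 higher among 25 (median -0.65), with 0 called. Ifitm3, an antiviral membrane protein, had 304, 345 and 622 in shXbp1 microglia, against 363, 1174, 999 and 880.0 in shScrmbl microglia. Complement genes were 9 lower and 3 higher (median -0.34). C1qb, a chain of the first complement component that microglia make, had 2356, 2691 and 3663 in shXbp1 microglia, against 1869, 3419.7, 3715 and 5720.0 in shScrmbl microglia. Fc and surface sensing receptors were 14 lower and 3 higher (median -0.43). Fcgr3, a low-affinity IgG receptor, had 1596, 1587 and 1556 in shXbp1 microglia, against 1557, 1729, 1522 and 1800.0 in shScrmbl microglia. Ftl1, the ferritin light chain that stores iron, had 17403, 26700.0 and 29735 in shXbp1 microglia, against 23046, 64797, 52770.3 and 49239.9 in shScrmbl microglia (edgeR log2 difference -0.95, adjusted p = 0.44).

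Inflammatory signalling genes did not share a direction. The 14 chemokines split into 7 higher and 7 lower by edgeR (median -0.14). Ccl4, which attracts monocytes and T cells, had 836, 414 and 3065 in shXbp1 microglia, against 571, 492, 1083 and 1720.0 in shScrmbl microglia. Ccl5, which also attracts T cells, had 380.0, 1035 and 670.4 in shXbp1 microglia, against 363, 997, 1820.3 and 2520.0 in shScrmbl microglia. The NF-kB and proinflammatory list had 10 higher and 5 lower members by edgeR (median 0.15), and 6 higher and 9 lower by limma (median -0.10). Il1b had 684, 828 and 2322 in shXbp1 microglia, against 208, 1262, 1820.3 and 1480.0 in shScrmbl microglia. Nfkbia, the inhibitor that NF-kB induces against itself, had 608, 621 and 1149 in shXbp1 microglia, against 415, 454, 607 and 600.0 in shScrmbl microglia (edgeR log2 difference 0.68, adjusted p = 0.93). Its groups did not overlap, but 608 and 607 differ by less than 1 count, worth 76.0 and 9.33 in those libraries.

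ER genes, the usual targets of XBP1 within a cell, were near 0 in microglia. ER chaperones were 7 higher and 5 lower among 12 (edgeR median 0.12, limma -0.01), and 20 translocation and degradation genes split into 10 and 10 (edgeR median 0.06), with 0 called in either list. Hspa5, the main ER chaperone BiP, had 1824, 1656 and 1436 in shXbp1 microglia, against 1401, 769.7, 1214 and 1240.0 in shScrmbl microglia (edgeR log2 difference 0.51, adjusted p = 0.996). Its groups did not overlap, but 1436 and 1401 differ by less than 1 count of shScrmbl replicate 1, worth 51.9. Hsp90b1, the ER member of the HSP90 family, had 912, 1035 and 1436 in shXbp1 microglia, against 727, 1262, 952 and 960.0 in shScrmbl microglia. Sec61g, a subunit of the translocon, had 532, 345 and 551 in shXbp1 microglia, against 727, 656, 635 and 840.0 in shScrmbl microglia. Atf4, the transcription factor of the parallel PERK branch, had 76.0, 69.0 and 239 in shXbp1 microglia, against 104, 37.9, 121 and 240.0 in shScrmbl microglia.

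Of the housekeeping lists, large ribosomal subunit and oxidative phosphorylation genes lay close to the median of all genes (-0.09). Proteasome, actin and glycolysis genes lay further below it. Large ribosomal subunit genes were 14 higher and 30 lower among 44 (edgeR median -0.15), nuclear oxidative phosphorylation genes 14 and 37 among 51 (-0.17), and proteasome genes 6 and 17 among 23 (-0.26). Of 12 glycolysis genes 2 were higher and 10 lower (-0.52), with 0 called, and the median was -0.24 without shScrmbl replicate 2 and 0.0013 without shScrmbl replicates 2 and 3. Gapdh had 304, 552 and 670.4 in shXbp1 microglia, against 779, 1918, 1335 and 1160.0 in shScrmbl microglia, without overlap (edgeR log2 difference -1.30, adjusted p = 0.16). Actin and Arp2/3 genes were 8 higher and 17 lower among 25 (-0.38), and the immediate early genes were 8 higher and 9 lower among 17 (-0.16).

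Among markers of the remaining cell types, those of choroid plexus took the largest share of counts in every library. Choroid plexus and ependyma markers took 5.29%, 3.67% and 3.88% of counts in shXbp1 microglia, against 6.93%, 2.01%, 2.21% and 1.75% in shScrmbl microglia, and without Ttr 0.169%, 0.353% and 0.29% in shXbp1 microglia, against 0.676%, 0.15%, 0.139% and 0.062% in shScrmbl microglia. The oligodendrocyte lineage and myelin list, 5 genes measured of 19, took 0.677%, 1.09% and 0.687% of counts in shXbp1 microglia, against 0.531%, 0.957%, 0.791% and 0.991% in shScrmbl microglia. Its largest member was Fth1, the ferritin heavy chain, which microglia express too. The 4 endothelial and mural genes were all higher by edgeR (median 0.64, 0 called), at 0.269%, 0.27% and 0.195% of counts in shXbp1 microglia, against 0.274%, 0.108%, 0.104% and 0.143% in shScrmbl microglia. The 2 B and plasma cell genes, Cd79b and Igj, took at most 0.0155% of counts in any library. The 6 astrocyte genes were higher by edgeR (median 0.42), at 0.149%, 0.113% and 0.0944% of counts in shXbp1 microglia, against 0.145%, 0.0442%, 0.0705% and 0.0852% in shScrmbl microglia. Of 8 neutrophil genes measured 7 were lower (median -0.83), and of 7 T and NK cell genes 6 were lower (median -1.05). Ngp, a neutrophil granule protein, had 0, 0 and 23.9 in shXbp1 microglia, against 260.0, 139, 140.0 and 200.0 in shScrmbl microglia, and its groups did not overlap. Nkg7, of cytotoxic lymphocyte granules, had 0, 0 and 0 in shXbp1 microglia, against 208, 151, 121 and 0 in shScrmbl microglia, at least 2.91-fold lower against a floor of 3 counts over the group. The part of these cells in the results was not tested.

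The same genes had been counted in astrocytes and monocytes sorted in the same study, each in its own table with 4 against 4 and 2 against 2 libraries. All 8 lower genes were below 0 there too, between -2.29 and -0.46 in astrocytes and between -1.45 and -0.21 in monocytes (edgeR log2 difference, shXbp1 minus shScrmbl), where 46.5% and 57.0% of all genes were lower. None of the 8 was called in either table, and the difference between cell types was not tested. Whether the libraries of the 3 cell types came from the same mice is not stated, so the tables cannot be read as independent. Single libraries carried much of this, as leaving each out in turn showed, a check chosen after seeing the data. Lyz1 had 68.2, 616, 125 and 305 in shXbp1 astrocytes, against 221, 4116, 506 and 689 in shScrmbl astrocytes, and without shScrmbl replicate 2 the means were 279 in shXbp1 and 472 in shScrmbl astrocytes. Cybb had 51.2, 67.4, 52.0 and 26.6 in shXbp1 astrocytes, against 20.1, 371, 26.6 and 27.6 in shScrmbl astrocytes. Without shScrmbl replicate 2 its direction turned, with means of 49.3 in shXbp1 and 24.8 in shScrmbl astrocytes. In monocytes Lyz1 had 3691 and 15912 in shXbp1 mice, against 20010 and 20497 in shScrmbl mice, and Cybb had 303 and 607 in shXbp1 mice, against 1202 and 1402 in shScrmbl mice. Without monocyte shXbp1 replicate 1 the mean signal of 5 of the 8 genes was lower in shXbp1 mice, and that of 3 was higher. Rps24 had 2166, 2079, 812 and 1149 in shXbp1 astrocytes, against 662, 738, 1118 and 883 in shScrmbl astrocytes. In monocytes it had 3084 and 9317 in shXbp1 mice, against 2711 and 2950 in shScrmbl mice.

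The calls of the lower genes depended on single libraries of both groups. Dropping the shallowest library, shXbp1 replicate 1, left none of the 8 called by edgeR. The same was true of each of the 2 deepest shScrmbl libraries, whose removal also takes away many counts. When shXbp1 replicate 3 was dropped, Anxa5 and Pla2g7 were the only genes of the 8 still called. shScrmbl replicate 2 had the highest signal of all 7 libraries in 7 of the 8 lower genes, shScrmbl replicate 3 in the other one, and shXbp1 replicate 1 had the lowest or shared it in all 8. With any one library left out, none of the 11 genes changed direction, as the plot with libraries left out shows, but edgeR called between 0 and 23 genes. Without shScrmbl replicates 2 and 3 edgeR called 0 genes, and the 8 lower genes lay between -1.53 (Anxa5) and -0.55 (Lyz1). In that fit Rps24 was 1.27 and Prss34 was 2.93. The monocyte and macrophage list then had 13 lower and 6 higher members with a median of -0.46, the secreted defence list 9 lower and 1 higher with a median of -0.72, MHC class II 7 lower and 2 higher with a median of -0.54, and MHC class I 10 lower and 2 higher with a median of -0.37.

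**Figure D5:**
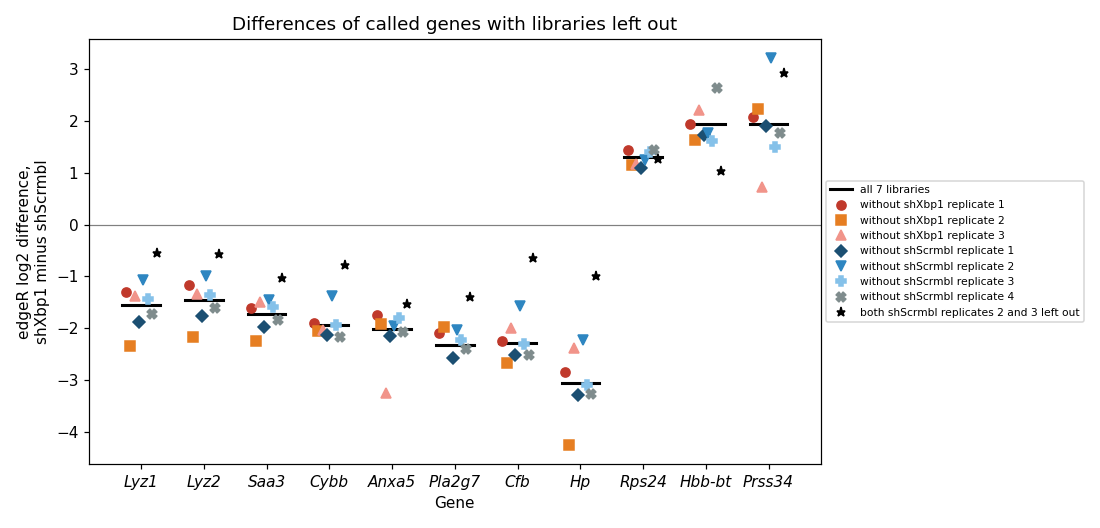
edgeR log2 difference (shXbp1 minus shScrmbl microglia) of 11 called genes with all 7 libraries (black line), with each library left out in turn, and with shScrmbl replicates 2 and 3 left out together (star). The 8 lower genes stay below 0 and the 3 higher ones above 0, and the Pla2g7 point without shXbp1 replicate 3 is not drawn because both remaining shXbp1 libraries are at 0.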

How the data were processed

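RNA of flow-sorted microglia was counted by 3′ digital gene expression, per the labels' protocols. The authors deposited a normalized signal per gene and library, and per the submitters' processing notes the tools were BWA 0.7.10 and limma 3.34.1, with build mm10; the counter, its strand setting and the low-count filter are not given in the sources used here. All values above 0 in the deposited signal came out as whole counts within 0.01 (100% of 18589), and these counts scaled by edgeR's TMM factors to 1e+06 matched the signal within a relative 4.94e-10. It is not stated whether counts are reads or molecules, so intervals cover counting error only. The lowest gene had 15 counts over the 7 libraries. Library pairs within a group differed by more than sampling noise (chi-square per gene 1.64 to 4.38, over genes chosen by their counts in each pair), so none was merged for the fits.

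Fits were run with edgeR 4.0.16, limma 3.58.1 and DESeq2 1.42.0 under R 4.3.3, and tables with Python 3.11.15. Genes with a signal of at least 1 in at least 3 libraries were tested (3066), shXbp1 against shScrmbl with no covariate: limma with trend and robust options on log2(signal + 1), and edgeR's quasi-likelihood test on the recovered counts, each with Benjamini-Hochberg adjustment and a threshold of 0.05. Limma fold changes depend on the pseudocount: 1 count was worth a signal of 9.33 to 76.0, so libraries at 0 weigh heavily. Named genes were Xbp1, genes called by edgeR, the 6 higher and 6 lower with the smallest limma p, and up to 4 abundant members of a list; P2ry12, Tmem119, Fcrls, S100a6, Fn1, F13a1, Wfdc17, Tapbp, Cd74, Spp1, Ngp, Ly6c2 and Ccr2 fall outside this rule and were chosen with their values known. Not every gene under the rule is reported here. Members and lists were chosen with earlier results of these data known. Shared 50-base words were counted in the last 500 bases of protein-coding transcripts of GENCODE M21 on GRCm38. Of 3067 symbols 3042 were matched, 2932 to GENCODE gene names and 110 through RefSeq synonyms. The fits were tested on simulated data.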

Additional observations from a re-analysis of the deposited data

Results flagged for a closer look

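Among 59 measures, 3 had a shScrmbl library far from the other 3 of its group, with a gap to its neighbour that took up nearly the whole range of the group; about 1 group in 20 is expected to show this. The share of counts from disease-associated microglia genes was lowest in shScrmbl replicate 1, at 7.91%, where the other shScrmbl libraries held 9.93% to 10.2% and the shXbp1 libraries 4.77%, 8.08% and 6.55%. The erythroid share was highest in shScrmbl replicate 4, at 0.232%, against 0.0287% to 0.041% in the other shScrmbl libraries. The choroid plexus and ependyma share was highest in shScrmbl replicate 1, at 6.93%, against 1.75% to 2.21% in the other shScrmbl libraries.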

How the results depend on the processing

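edgeR called 12 genes. It called 11 with DESeq2 size factors, 12 with no filter, 0 with edgeR's filterByExpr, 1 with counts thinned to 10039 per library (Rps24) and 0 with DESeq2's Wald test. With 1 library left out it called between 0 and 23 genes: 0 when shScrmbl replicate 3 was missing, 1 (Prss34) when it was shScrmbl replicate 2 or shXbp1 replicate 1, 5 for shXbp1 replicate 3, 11 for shXbp1 replicate 2, 16 for shScrmbl replicate 4 and 23 for shScrmbl replicate 1. Without shScrmbl replicates 2 and 3 together, a choice made after seeing the data, it called 0. limma called 0 genes, against 1 with a pseudocount of 50 (Anxa5), 6 after quantile normalization (Anxa5, Ctsb, Ftl1, Pla2g7, Rps24 and Saa3), 4 with thinned counts (Ctsb, Ctsd, Malat1 and Rps24), 1 with limma-voom (Hbb-bt), and 0 to 3 with 1 library left out. The cause of these shifts was not tested. For Xbp1 in microglia the difference of mean signal was -2.94 with all libraries and ran from -20.0 to 21.2 with 1 left out, turning positive when shXbp1 replicate 3 (21.2) or shScrmbl replicate 3 (14.2) was missing. Of 233 recomputed values of the named genes, 135 stayed on the same side of the threshold, 95 no longer passed, 3 newly passed and 0 reversed. The 95 all belonged to genes that edgeR called with all libraries. The 135 also hold values of genes named by limma alone, which counted as unchanged while they remained uncalled. With 1 library left out, the genes edgeR had called passed in between 1 (Rps24) and 5 (Prss34) of 7 fits. The median of all genes lay between -0.84 and 0.11 over the limma fits, so limma differences are best read against it. Same-numbered libraries of the groups deviated together with correlations of 0.0932, 0.185 and 0.02, and the labels do not tie the numbers, so they were not treated as pairs; with the replicate number as a block edgeR called 24 genes (limma 0), and shXbp1 replicates did not each correlate best with their own number. Depth limits these results: 2559 genes had fewer than 20 counts over the 3 shXbp1 libraries.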
